A study of Mus musculus with 12 samples.

Results

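The MAP kinase cascade genes were examined as targets of glucocorticoid receptor (GR) binding in BWTG3 cells, a mouse hepatoma line. The members were the protein-coding genes whose symbol is Mapk, Map2k, Map3k or Map4k followed by a number, which gave 43 of the 21887 nuclear protein-coding genes. They comprised 13 Mapk, 7 Map2k, 18 Map3k and 5 Map4k genes. A GR peak was assigned to a member when its centre lay inside the gene span or within 50 kb of it. The members are long genes, with a median span of 57.1 kb, against 17.2 kb over all protein-coding genes, so their windows are also longer.

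GR was mapped by chromatin immunoprecipitation followed by sequencing with a rabbit antibody against GR. The TNFDEX cells (3 libraries) received 1000 U/ml recombinant tumour necrosis factor (TNF), an inflammatory cytokine, and then 1 µM dexamethasone (Dex), a synthetic glucocorticoid, 1 h later. The DEX cells (3 libraries) received Dex and the TNF cells (2 libraries) received TNF. The titles of the NI libraries (3) name neither agent, and NI is taken here as the group without either. All cells had been kept 24 h in Opti-MEM medium before stimulation, which lasted 3 h in total. The replicates are biological ones, per the design text. The cells are 1 tumour-derived line, and no group lacks GR. Peak lists carry no expression values, so the liver identity of the cells could not be checked against markers.

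Signals from growth factors, cytokines and stress pass through MAP kinase cascades as a chain of phosphorylations. A MAP4K activates a MAP3K, the MAP3K activates a MAP2K, and the MAP2K activates a MAP kinase, which then acts on transcription factors and other kinases. The ERK branch answers mainly to growth factors, and the JNK and p38 branches to stress and to cytokines such as TNF. Ligand-bound GR binds DNA at glucocorticoid response elements, and the best described link between GR and the cascades in liver cells is the induction of phosphatases that switch MAP kinases off.

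The libraries held 39228805 to 51141996 tags and 2524 to 22590 peaks each. The total number of peaks averaged 15091 ± 7033 in TNFDEX (SD, n = 3), 12152 ± 1448 in DEX (n = 3), 6538 ± 3402 in TNF (n = 2) and 4823 ± 2060 in NI (n = 3). A peak's signal is its normalized tag count, the tags in the peak scaled by the authors to 20000000 tags per library. A list holds only called peaks, so a library without a call has an unknown level. The weakest called peak of a library lay between 5.4 and 6.6. Peaks on the mitochondrial chromosome separated 6 libraries with few such tags (TNFDEX 1, DEX 1, DEX 2, TNF 1, NI 1 and NI 2) from 5 with many (TNFDEX 2, TNFDEX 3, DEX 3, TNF 2 and NI 3), and this split was used as a batch.

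Peaks near the 43 members were more numerous with Dex, as they were over the genome. The member windows held 47.7 ± 22.1 peaks per library in TNFDEX (n = 3), 41.3 ± 5.13 in DEX (n = 3), 19.5 ± 10.6 in TNF (n = 2) and 22.7 ± 9.71 in NI (n = 3). As a share of all peaks of a library this was 0.318% ± 0.0183 in TNFDEX, 0.341% ± 0.0281 in DEX, 0.296% ± 0.00813 in TNF and 0.471% ± 0.00967 in NI. The share near members was thus highest in all NI libraries, between 0.459% and 0.477%, and lay between 0.290% and 0.361% in all others. Mapk7, Mapk11, Map3k9 and Map3k15 had no peak in any library.

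**Figure D1:**
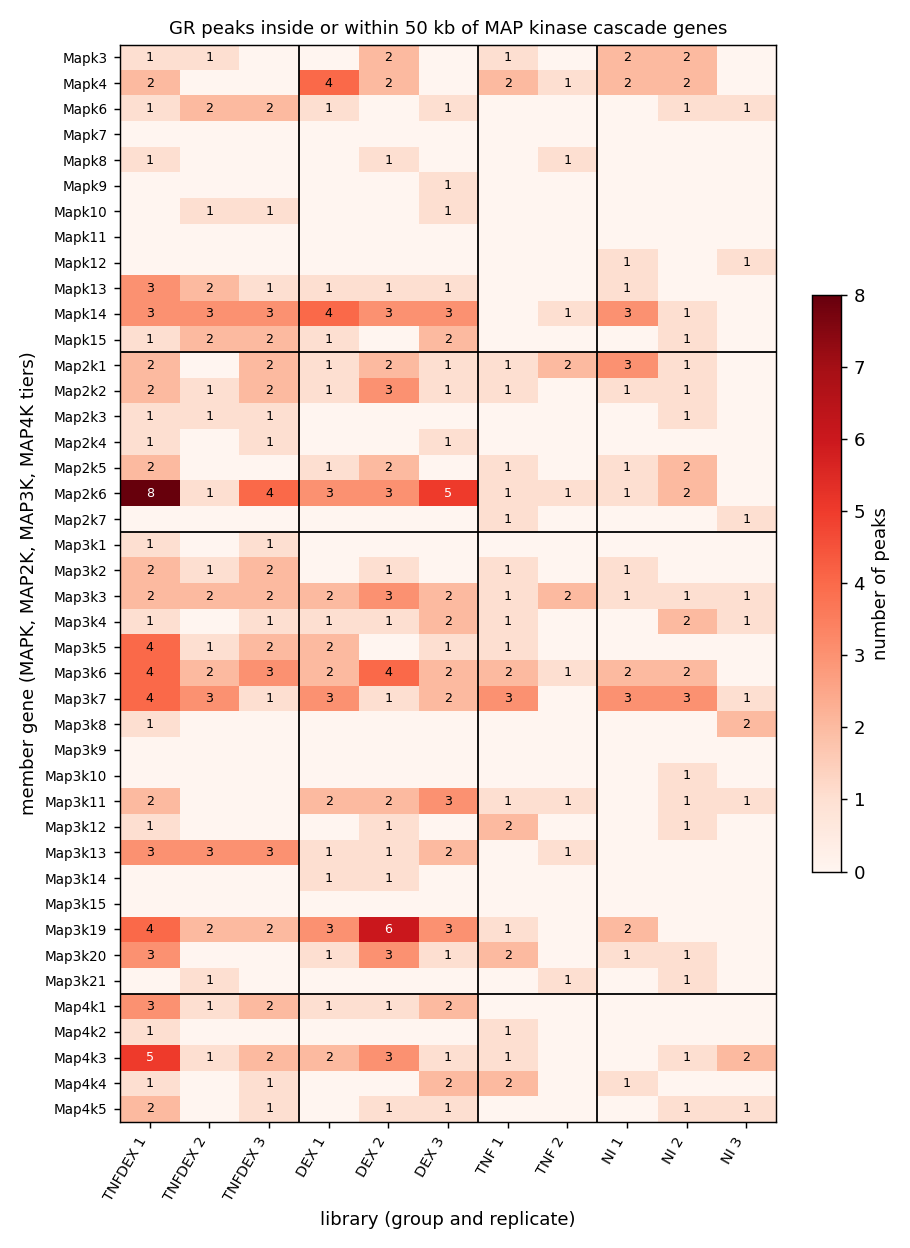
Number of GR peaks inside or within 50 kb of the members reported here (rows, ordered by tier) in each of the 11 libraries (columns, by group and replicate), with empty cells for 0. The highest number is 8 peaks near Map2k6 in TNFDEX 1, and the rows of Mapk7, Mapk11, Map3k9 and Map3k15 are empty.

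Overlapping peaks of the 11 lists were merged into 47493 regions, of which 175 belonged to members. A group was credited with a region that 2 or more of its libraries shared. By that count 22 members (51.2%) had a TNFDEX region, against 39.4% of all protein-coding genes. In DEX 18 members (41.9%) had a region, against 36.5% of all genes. In TNF 1 member (2.33%), Map3k3, had a region, against 6.08% of all genes. In NI 9 members (20.9%) had one, against 14.8% of all genes. The rule is stricter for TNF, whose 2 libraries must both have the call. With a call required in every library, NI also had 1 member (2.33%), against 1.62% of all genes. The members' shares in TNFDEX, DEX and NI lay somewhat above those of all genes, whose windows are shorter, and the difference was not tested. The NI count rests on NI 1 and NI 2. Leaving out NI replicate 1 left 1 member (2.50% of all genes) and leaving out NI replicate 2 left 2 (2.27% of all genes). The TNFDEX count was 14 without TNFDEX replicate 3 (25.4% of all genes).

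**Figure D2:**
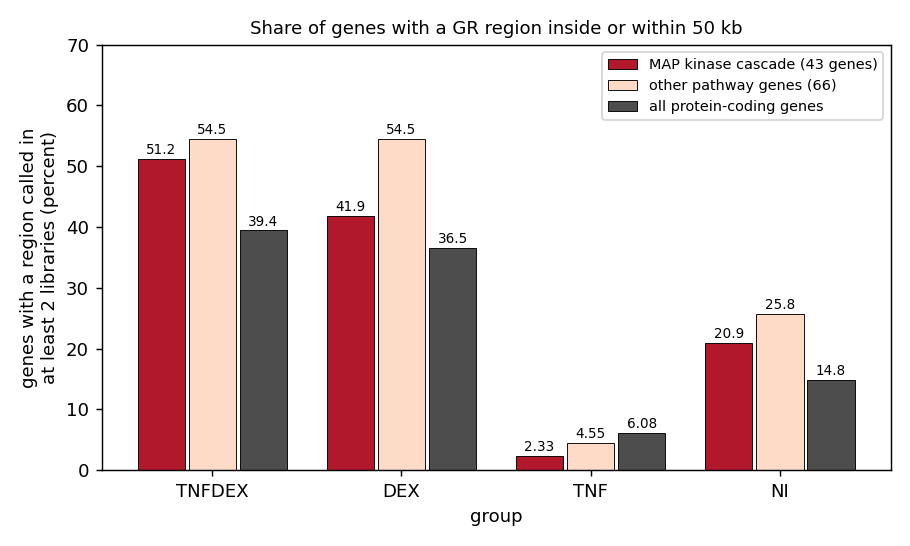
Percentage of genes with a GR region called in at least 2 libraries of a group and inside or within 50 kb of the gene, for the 43 members, for 66 other genes of the pathway and for all protein-coding genes. For the members the bars stand at 51.2% in TNFDEX, 41.9% in DEX, 2.33% in TNF and 20.9% in NI. TNF has only 2 libraries, so its bars need a call in every library.

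The presence of a region differed among the tiers, which are too small for a comparison between them. In DEX, 3 of 5 MAP4K, 9 of 18 MAP3K, 3 of 7 MAP2K and 3 of 13 MAPK genes had a region. In TNFDEX the counts were 4, 8, 4 and 6 in the same order of tiers. Over all genes the shares were 39.4% in TNFDEX, 36.5% in DEX, 6.08% in TNF and 14.8% in NI. By textbook branch, a grouping added after values had been seen, 4 of 6 genes of the p38 branch had a region in TNFDEX, 3 in DEX and 3 in NI. Among them Mapk13 counts in TNFDEX and DEX only through a region that also counts for Mapk14. The JNK genes, 5 in all, had 1 in TNFDEX (Mapk10, which encodes a JNK of the nervous system) and 0 in DEX, TNF and NI. Mapk8 and Mapk9, which encode the widely expressed JNKs, and Map2k4 and Map2k7, which encode their activating kinases, had peaks but no region in any group.

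Most member regions were seen once. Of the 175, 105 (60%) were called in a single library, as were 59.5% of all regions, and 1 was called in all 11 libraries. Regions called in all 6 Dex-treated libraries and in no TNF or NI library numbered 8 (4.57%), against 5.06% of all regions. They lay near Map4k1, Map3k6, Map3k13, Map3k19, Map2k2, Map2k6, Mapk14 and Mapk13, and so at every tier of the cascade. Their mean signal in DEX had a median of 36.9, against 29.4 over all regions with that pattern.

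The MAP4K tier, the entry point of several stress cascades, had moderate signals. Map4k1 encodes HPK1, a kinase known from blood cells. The region assigned to it lay inside Actn4, 29.2 kb from Map4k1 (chr7:28952769-28952955), with signals of 42.3, 12.9 and 25.5 in TNFDEX and 18.3, 15.8 and 30.6 in DEX. It was not called in TNF or NI, and the TNFDEX and DEX values overlapped. Map4k4, which encodes a kinase of stress signalling and cell migration, had a region inside its span (chr1:39934706-39934907) with 53.5 in TNFDEX 1, 26.3 in TNFDEX 3 and 32.3 in DEX 3. No other library had that peak. Map4k3, which encodes a kinase of nutrient and immune signalling, had a region inside its span (chr17:80683728-80683942) with 30.3 and 19.7 in TNFDEX 1 and TNFDEX 3 and 16.9, 25 and 12.9 in the DEX libraries. Map4k5 had weaker regions in both groups, and Map4k2 had none.

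Among the MAP3K genes, Map3k6 had the strongest DEX region of all members. Map3k6 encodes ASK2, a partner of the stress-activated kinase ASK1. The region (chr4:133240547-133240730) was centred at -180 bp from the annotated start site of Map3k6, within its gene span. Its signals were 126.1, 46.1 and 70.3 in TNFDEX and 89.7, 120.8 and 59.9 in DEX, and no TNF or NI library had a peak there. The 6 Dex-treated libraries all had the peak, and the values of the TNFDEX and DEX groups overlapped. The authors' ratio of these peaks to the input was 18.0 to 48.9. Of the 7994 genes with a DEX region, 7.01% had a stronger one.

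The Map3k6 promoter is shown because the peak overlaps its upstream part. The sequence is the RefSeq promoter window of GRCm38.p6 (mm10 coordinates), on the plus strand at chr4:133240568-133240867. It runs from 250 bases before the start site to 50 after it. The capitals mark a match to a loose form of the palindromic glucocorticoid response element, namely the arm NGNACA, any 3 bases and the arm TGTNCN. This form was chosen after the signals had been seen.
Map3k6 promoter: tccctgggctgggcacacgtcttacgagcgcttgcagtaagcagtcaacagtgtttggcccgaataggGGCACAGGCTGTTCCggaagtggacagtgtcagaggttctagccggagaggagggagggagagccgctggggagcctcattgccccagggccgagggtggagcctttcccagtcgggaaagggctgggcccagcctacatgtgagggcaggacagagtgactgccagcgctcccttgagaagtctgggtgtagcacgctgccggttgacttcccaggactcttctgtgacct
The match spans bases 69 to 83 of the window (chr4:133240636-133240650) and its first base lies at -182 bp from the start site. The centres of the 6 peaks lay 0 to 8 bp from the centre of the match. The loose element reads the same on both strands, and 155 of the 32851 promoter windows in the table hold it (0.472%). Among the 637 windows that share bases with a DEX region, 21 hold it (3.30%). It occurs in 1 of 46 member windows, that of Map3k6.

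The strict element, AGAACA and TGTTCT with any 3 bases between them and also the same on both strands, was in 3 of all promoter windows (0.00913%) and in 0 of the 46 windows of 34 members. Its single arm AGAACA, searched on both strands and contained in every strict element, was in 6233 of all windows (19.0%) and in 7 member windows of 5 genes. Only Map3k6 and Mapk14 had a promoter window that shared bases with a DEX region, and 1.94% of all windows did. These matches describe the letters of the windows alone.

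Map3k13 had the strongest TNFDEX region of all members. It encodes LZK, a leucine zipper kinase that can activate the JNK branch. The region lay 2.6 kb upstream of the gene span (chr16:21821321-21821534) and at -70.5 kb from the nearest annotated start site of Map3k13. Its signals were 119, 53.2 and 100.3 in TNFDEX and 24.3, 31.6 and 49.1 in DEX, with no peak in TNF or NI. All TNFDEX values exceeded all DEX values. A further region 5.2 kb upstream of the span (chr16:21818715-21818917) lay at -73.2 kb from that start site. It had a peak in the TNFDEX libraries alone, with 19.9, 12.5 and 24.3. Another, inside Tmem41a and 13.4 kb downstream (chr16:21946708-21946924), had 36.5, 14.1 and 22.2 in TNFDEX and 26.3 in DEX 3.

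**Figure D3:**
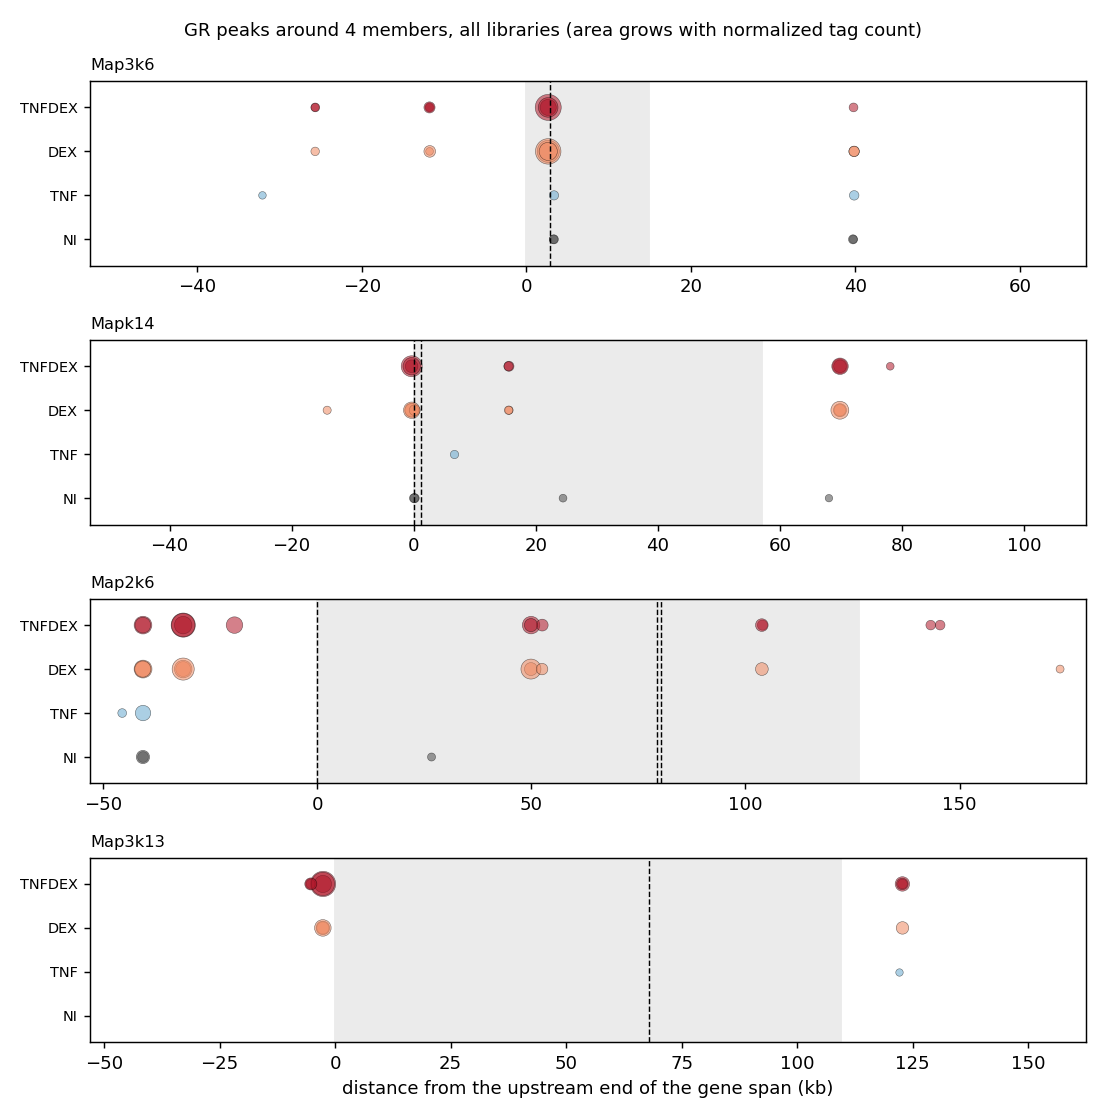
GR peaks of all libraries around Map3k6, Mapk14, Map2k6 and Map3k13, by distance from the upstream end of the gene span (kb), with 1 row per group. Each circle is 1 peak and its area grows with the normalized tag count, the shaded box is the gene span and the dashed lines are RefSeq start sites. The large circles of TNFDEX and DEX stand at the start sites of Map3k6 and Mapk14, upstream of Map2k6 and just outside the span of Map3k13, and the rows of TNF and NI hold none there of that size.

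Map3k19, which encodes a less studied kinase of the tier, had a region 5.6 kb from its span (chr1:127860473-127860690). Its signals were 51.4, 30.5 and 52.6 in TNFDEX and 21.8, 32.6 and 32.3 in DEX, and no TNF or NI library had a peak there. The 2 groups overlapped through TNFDEX 2. A further region 44.6 kb away, inside Rab3gap1 (chr1:127899533-127899747), was weak and was called in the TNFDEX libraries alone, with 6.6, 7.0 and 9.0.

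Map3k7 encodes TAK1, through which TNF and interleukin-1 signals reach the JNK, p38 and NF-kB pathways. A region 17.2 kb upstream of it (chr4:31946183-31946446) had 47.7, 28.2 and 48.5 in TNFDEX and 24.3, 30.6 and 53.8 in DEX. It had 13.2 in TNF 1, no peak in TNF 2, 6.4 in NI 1, 15 in NI 2 and no peak in NI 3. Every value of the Dex-treated libraries exceeded every value called without Dex, and TNFDEX and DEX overlapped. Map3k2, which encodes MEKK2, had a region called in TNFDEX 1 (36.9) and TNFDEX 3 (34.5) alone (chr18:32147602-32147798), nearest to Proc.

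Map3k3 encodes MEKK3, a kinase that also acts in TNF signalling, and had the 1 member region called in every library. It lay inside Taco1, 18.5 kb from Map3k3 (chr11:106065947-106066184). Its signals were 16.6, 10.6 and 16.0 in TNFDEX, 10.9, 13.3 and 9.5 in DEX, 15.2 and 11.5 in TNF and 11.9, 9.2 and 11.6 in NI. The 4 groups overlapped. Map3k20, which encodes ZAK, a kinase of the ribosomal stress response, had a region inside its span (chr2:72320820-72321011). Its signals were 32.3 in TNFDEX 1, 27.8, 38.7 and 11.6 in DEX, 61.3 in TNF 1 and 19.3 and 35.8 in NI 1 and NI 2. Its highest value was in a library without Dex, and TNFDEX 2, TNFDEX 3, TNF 2 and NI 3 had no peak there.

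Map3k6 also had weak regions that were called in NI. One lay 504 bp downstream of its start site (chr4:133241228-133241417), with 12.7 in TNF 1, 9.9 in NI 1 and 12.1 in NI 2 and no call in any Dex-treated library. The other lay inside Tmem222 (chr4:133277601-133277897), with 11.2 in TNFDEX 1, 17.4 and 16.8 in DEX 1 and DEX 2, 13.7 in TNF 1 and 8.4 and 12.1 in NI 1 and NI 2. Both were far below the promoter region described above. Map3k4, Map3k5 and Map3k11 had DEX regions with means of 17.7, 20.8 and 26.6. Map3k1, Map3k8 (TPL2), Map3k10, Map3k12, Map3k14 (NIK, of the non-canonical NF-kB pathway) and Map3k21 had peaks but no region in any group.

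In the MAP2K tier the p38 kinase kinase Map2k6 (MKK6) had the most regions, with 4 in TNFDEX, 3 in DEX and 1 in NI. The strongest lay 31.3 kb upstream (chr11:110367740-110367926), and its nearest gene was Abca5 at 30.1 kb. It had 108.7, 55.1 and 100.7 in TNFDEX and 38.7, 55.6 and 90 in DEX. No TNF or NI library had it, and TNFDEX and DEX overlapped. A region 40.7 kb upstream (chr11:110358312-110358536), also nearest to Abca5 (20.7 kb), was called without Dex as well. It had 56.8 and 44.0 in TNFDEX 1 and TNFDEX 3, 42.1, 57.6 and 47.8 in DEX, 42.1 in TNF 1 and 18.8 and 30.4 in NI 1 and NI 2. The TNF value equalled the lowest DEX value, and both NI values lay below all others.

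Map2k3 (MKK3), the other main activator of p38, had 1 region, 3.3 kb after its start site and inside its span (chr11:60935245-60935444). It was called in TNFDEX alone, with 15.3, 19.9 and 36.6. The authors' ratio to the input there was 35.6 to 85.8, though its signals lay below those of the Map3k6 promoter region. The input level itself was not read here. Map2k2 (MEK2), which activates kinases of the ERK branch, had a region inside Thop1 and 29.3 kb upstream (chr10:81076492-81076719), with 44.0, 29.3 and 57.2 in TNFDEX and 27.3, 37.7 and 50.8 in DEX and no peak in TNF or NI. The TNFDEX and DEX values overlapped. Map2k1 (MEK1), its close relative, had its strongest region inside its span (chr9:64202500-64202710), with 18.2 and 16 in TNFDEX 1 and TNFDEX 3, 11.2 in DEX 3 and no peak in TNF or NI. It also had weak peaks near Snapc5 (chr9:64179030-64179427) with 11.9 in TNFDEX 3, 9.2 in DEX 2, 8.3 in TNF 2 and 9.4 and 11.1 in NI 1 and NI 2. Map2k5, which activates ERK5, had a region in DEX (mean 14.1).

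Of the MAP kinases, Mapk14 and Mapk13 had regions in every Dex-treated library. Mapk14 encodes p38 alpha, the main p38 kinase of most cells. Its region (chr17:28690921-28691111) was centred at -326 bp from its start site and within the span of Slc26a8. The signals were 80.9, 27 and 54.7 in TNFDEX and 29.7, 34.7 and 48.2 in DEX, with no peak in TNF or NI. TNFDEX held both the highest and the lowest value. A separate, weaker region centred 114 bp after the start site (chr17:28691319-28691593) had 18.9 in DEX 2 and 12.4 and 12.1 in NI 1 and NI 2.

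The Mapk14 promoter window is shown because the Dex region reaches into it from upstream. It is the RefSeq window of GRCm38.p6 on the plus strand at chr17:28691092-28691391, and the capitals mark the 20 bases that lie in the Dex region.
Mapk14 promoter: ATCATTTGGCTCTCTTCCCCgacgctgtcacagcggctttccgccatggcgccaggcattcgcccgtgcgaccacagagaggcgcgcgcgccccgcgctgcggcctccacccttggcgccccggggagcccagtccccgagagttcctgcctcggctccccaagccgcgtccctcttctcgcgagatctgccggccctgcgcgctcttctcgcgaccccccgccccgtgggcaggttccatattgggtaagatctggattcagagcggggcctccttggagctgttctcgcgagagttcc
The larger part of the region lies upstream of these bases and is not printed. The window holds no match to the loose response element.

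Mapk13 encodes p38 delta and lies next to Mapk14 on chromosome 17. A region between both genes, 8.1 kb from Mapk13 and 12.8 kb from Mapk14 (chr17:28761078-28761277), had 38.6, 27 and 48.5 in TNFDEX and 21.8, 29.1 and 57.7 in DEX. No TNF or NI library had it, and the TNFDEX and DEX values overlapped. It counts for both genes. Mapk12 (p38 gamma) had peaks in NI 1 (25.3) and NI 3 (21.8) alone, inside Selenoo and 41.4 kb away (chr15:89089069-89089293). Mapk3 (ERK1) had a region inside Aldoa (chr7:126798973-126799203) with 18.2 in TNFDEX 1, 24.0 in DEX 2, 19.8 in TNF 1 and 17.8 and 18.8 in NI 1 and NI 2. The groups overlapped. All libraries with the Mapk3 peak were among those with few mitochondrial tags, and none of those with many had it. The same held for the Map3k6 region 504 bp after its start site and for that inside Tmem222. It also held for the Mapk14 region 114 bp after its start site and for the strongest Mapk4 region. Of the atypical kinases, the strongest region averaged 22.0 in DEX for Mapk4, 14.3 in TNFDEX for Mapk6 and 22.1 in TNFDEX for Mapk15.

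**Figure D4:**
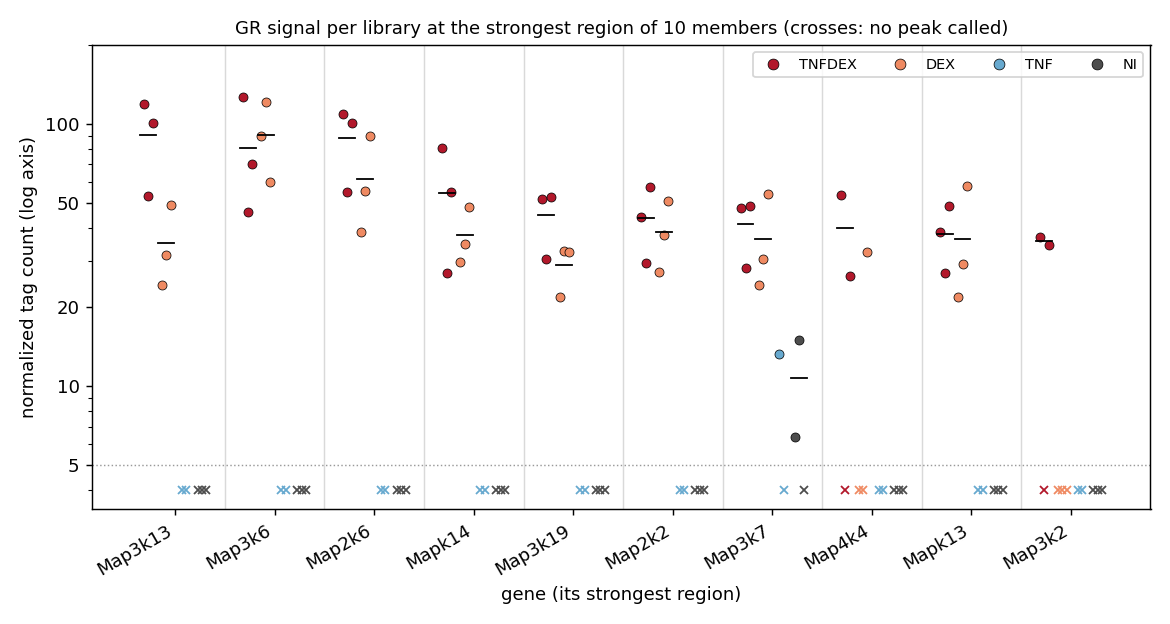
Normalized tag count in each library (log axis) at the strongest region of the 10 members with the strongest regions, with TNFDEX, DEX, TNF and NI from left to right for each gene, bars at the group mean of called libraries and crosses for libraries without a peak. The 3 TNFDEX points of Map3k13 (53.2 to 119) stand above its 3 DEX points (24.3 to 49.1), and of the 10 regions that of Map3k7 has points in TNF and NI.

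Set against all genes with a region, the strongest member regions were not extreme. The strongest DEX region of a member had a median signal of 26.3, against 20.9 over all genes with a DEX region, and 12 of 18 members lay above that value. In TNFDEX the medians were 26.0 for members and 22.7 for all genes, with 13 of 22 members above. The 90th percentile over genes was 78.7 in TNFDEX, which 3 members exceeded (Map3k13, Map3k6 and Map2k6), and 71.4 in DEX, which 1 exceeded (Map3k6).

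The comparison of Dex-treated with other libraries asks where Dex brings GR to the members. Between DEX and NI, 12 members (27.9%) had a region in DEX and not in NI, against 24.7% of all genes. A further 6 members (14.0%) had one in both, against 11.8% of all genes, and 3 (6.98%) in NI and not in DEX, against 3.06%. The last were Map2k1, Mapk3 and Mapk12. Of 118 member regions called in either group, 9 (7.63%) were called in every DEX and no NI library, against 12.9% of all such regions. The reverse pattern held for 0 of 118 member regions and for 0.0237% of all. The 9 became 15 without DEX replicate 1 (14.2%, against 19.2% of all regions).

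The number of peaks per gene was compared between the Dex-treated and the other libraries by an exact two-sided permutation test within the libraries with and without TNF, with 200 arrangements, over 17542 genes. No gene, and so 0 of the 39 members with a peak, passed at an adjusted p of 0.05, where 0% of all genes were called. Before adjustment, 7 members (17.9%) were higher at 0.05, against 17.8% of all genes, and 0 were lower, against 0.49%. The members' share was that of the genome. With arrangements kept within the mitochondrial batches, 4 members were higher before adjustment, against 16.0% of all genes. When libraries were permuted only within a replicate number (a block), 0 members and 0% of genes were higher, since the 32 arrangements then allow no exact permutation p below 0.0625. The 7 were Map3k19, Map3k13, Map4k1, Mapk14, Map3k3, Map2k6 and Mapk13, named here after their values had been seen. Their differences lay between 0.917 peaks per library (Map3k3) and 3.0 (Map2k6), with unadjusted exact permutation p of 0.005 to 0.04. The smallest adjusted p was 0.115, for Map3k19 and Map3k13, whose unadjusted p of 0.005 is the smallest the arrangements can give. For Map3k3 the sign turned when each library was cut to its 2524 strongest peaks (fell by 0.833) and when peaks were counted per 10000 (fell by 0.982).

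Map3k13 had 3, 3 and 3 peaks in TNFDEX, 1, 1 and 2 in DEX, 0 and 1 in TNF and 0 in all NI libraries. Map3k19 had 4, 2 and 2 in TNFDEX, 3, 6 and 3 in DEX, 1 and 0 in TNF and 2, 0 and 0 in NI. Mapk14 had 3, 3 and 3 in TNFDEX, 4, 3 and 3 in DEX, 0 and 1 in TNF and 3, 1 and 0 in NI. The Dex-treated libraries were at or above all others for the 3 genes.

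Signal could be compared between DEX and NI only at the 179 regions called in all 6 libraries. Of these limma, a linear model with shared variance, called 12.3% higher and 3.35% lower in DEX, which is 22 and 6 regions. Blocking on replicate numbers gave 35 and 18, and fitting with library totals in place of the scaling gave 32 and 0. The 1 member region among them, that of Map3k3 in Taco1, averaged 11.2 ± 1.92 in DEX and 10.9 ± 1.48 in NI (SD, n = 3 each) and was not called (log2 -0.81, SE 0.45, limma adjusted p = 0.265). That log2 value is relative to a median rise of 0.76 at the tested regions, and without this scaling it was 0.04.

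TNFDEX was set against DEX to see how GR binding at the members under Dex differs with prior TNF. The TNFDEX cells received Dex 1 h after TNF within 3 h in total, so they may have had Dex for less time than the DEX cells. TNF and time in Dex cannot be told apart in that case. A region was present in TNFDEX and not in DEX for 8 members (18.6%), against 8.6% of all genes. It was present in both for 14 (32.6%), against 30.8% of all genes, and in DEX and not in TNFDEX for 4 (9.30%), against 5.68%. These differences from all genes were not tested. Of 122 member regions called in either group, 3 (2.46%) were called in every TNFDEX and no DEX library, against 0.663% of all such regions. They were those of Map3k13 5.2 kb upstream, Map2k3 inside its span and Map3k19 inside Rab3gap1. With so few the share is imprecise. The count was 6 without DEX replicate 3 (5.22%, against 2.57% of all regions) and 6 without TNFDEX replicate 2 (5.26%, against 3.77%). Leaving out a library makes the pattern easier to meet for all regions. None of the 3 was left when each library was cut to its 2524 strongest peaks, where 1.35% of all regions had the pattern. The reverse pattern held for 0 of 122, against 0.0626% of all regions.

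At the 4023 regions called in all 6 of these libraries, signal differed most at Map3k13 among the 10 member regions. The region 2.6 kb upstream averaged 90.8 ± 33.9 in TNFDEX and 35.0 ± 12.7 in DEX (SD, n = 3 each), a log2 difference of 1.21 (SE 0.22) that ranked 10 of 4023 by p. It did not pass adjustment (limma adjusted p = 0.136). No region of the genome did, with 0% called in either direction and 259 regions at an unadjusted p of 0.05. The Map3k13 region passed with the mitochondrial batch as a term (log2 1.15, limma adjusted p = 0.0201), where 25 regions were higher and 1 lower. It passed with the replicate number as a block (limma adjusted p = 0.0496), where 18 were higher and 0 lower. Replicate numbers did not pair these 2 groups, which limits that fit. It also passed without DEX replicate 3 (limma adjusted p = 0.0451), where 17 were higher and 7 lower. Over all alternatives run the adjusted p ranged between 0.0201 and 0.9997, and the log2 difference between 1.14 and 1.36. Within the batches, on the deposited scale, TNFDEX exceeded DEX by 2.10 among the low libraries (1 against 2) and by 0.57 among the high ones (2 against 1).

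The other 9 member regions did not pass under any alternative run. Their log2 differences, TNFDEX minus DEX, were 0.46 for Map3k19 (SE 0.24), 0.39 for Map2k6 (SE 0.24), 0.27 for Mapk14 (SE 0.23), 0.19 for Map3k3, 0.08 for Map3k7, 0.07 for Map4k1, 0.01 for Map2k2, 0.00 for Mapk13 and -0.37 for Map3k6 (SE 0.37). The median of all tested regions was 0.14 higher in TNFDEX before scaling, so these values are relative to that shift. Within batches the differences were taken on the deposited scale, so they are not relative to that shift. There all 9 were higher in TNFDEX among the low libraries, between 0.28 (Map3k6) and 1.33 (Mapk14). Most of the 9 were lower in TNFDEX among the high ones. Map2k6 differed by 1.23 among the low libraries and by -0.27 among the high ones, and Mapk14 by 1.33 and -0.33. Library and treatment cannot be told apart there, since each batch holds 1 library of one of the groups.

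**Figure D5:**
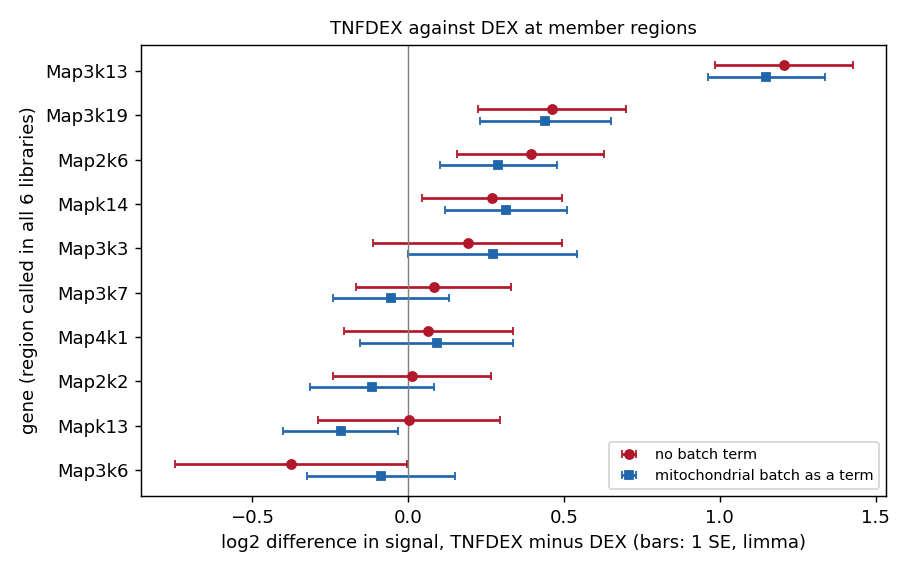
Log2 difference in signal, TNFDEX minus DEX, at the 10 member regions called in all 6 libraries, with 1 SE from limma, without (circles) and with (squares) the mitochondrial batch as a term. Map3k13 stands apart at 1.21 without and 1.15 with the batch term, and the others lie between -0.37 and 0.46.

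TNF was set against NI to see if the cytokine without added glucocorticoid changes GR binding at the members. Of 80 member regions called in either group, 0 were called in both TNF and no NI library, against 0.565% of all such regions, and 0 showed the reverse, against 0.0439%. The 1 member region called in all 5 libraries, that of Map3k3, averaged 13.4 ± 2.62 in TNF (n = 2) and 10.9 ± 1.48 in NI (n = 3). limma called neither it (log2 -0.06, SE 0.56, adjusted p = 0.995) nor any other of 152 regions (0% in each direction, with 0 at an unadjusted p of 0.05), and the sign of the Map3k3 value turned without scaling (0.29). The median rise before scaling was 0.34.

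Over all 4 groups, TNF changed the number of peaks of 0 members at an adjusted p of 0.05 in the exact permutation test, with 0% of genes called. Before adjustment 1 member (2.56%) was higher, against 1.22% of all genes, and 0 were lower, against 0.274%. It was Map3k13, with 1.08 more peaks per library (exact permutation p = 0.02, adjusted p = 1). Its peak numbers stand above, and all 3 TNFDEX libraries had more of its peaks than any DEX library. Before adjustment, 0 members were higher with a window of 10 kb (0.785% of all genes) and with the strongest peaks (0.225%). The number was also 0 with at least 10 tags (0.436%) or 20 tags (0.115%) and within the mitochondrial batches (1.02%). It was 1 with 100 kb (1.44%), per 10000 peaks (1.64%) and by the sum of tag counts (1.62%).

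TNFDEX against TNF repeats the Dex comparison in cells that had TNF. Of 112 member regions called in either group, 16 (14.3%) were called in every TNFDEX and no TNF library, against 11.6% of all such regions, and 0 showed the reverse, against 0.226%. The 16 included the strongest regions of Map3k13, Map2k6, Map3k6, Mapk14, Map3k19, Map2k2, Mapk13 and Map4k1. The count was 29 without TNFDEX replicate 2 (27.9%, against 22.5% of all regions). Among 508 regions with a call in all 5 libraries, limma placed 11.4% higher and 0.984% lower in TNFDEX, which is 58 and 5 regions. The counts were 7 and 0 with library totals, 61 and 14 when blocked on replicate numbers and 99 and 73 with the batch as a term. The Map3k3 region, 14.4 ± 3.30 in TNFDEX (n = 3) and 13.4 ± 2.62 in TNF (n = 2), was not called (log2 -0.56, SE 0.39, adjusted p = 0.344), and was called lower with the batch as a term (log2 -0.71, adjusted p = 0.0353). This value is relative to a median rise of 0.56, and without scaling it was 0.09.

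The pathway holds further genes beyond the kinases of the 4 tiers, and 66 of them were followed in 6 lists. Of these 36 (54.5%) had a region in TNFDEX, 36 (54.5%) in DEX, 3 (4.55%) in TNF and 17 (25.8%) in NI, against 39.4%, 36.5%, 6.08% and 14.8% of all genes in the same order. In DEX, 10 of 13 negative regulators (phosphatases of the Dusp family, Spry and Spred genes) had a region, and 7 of 13 had one in NI. The small GTPases, adaptors and exchange factors of the ERK branch had 8 of 10 in DEX, the kinases downstream of MAP kinases 6 of 10, the scaffolds and adaptors 6 of 14, the transcription factor targets 3 of 8 and the RAF and other upstream kinases 3 of 11. In the exact permutation test 0 of 62 genes passed at an adjusted p of 0.05, and 14 (22.6%) were higher before adjustment, against 17.8% of all genes.

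The strongest regions of Mknk2 and Mapk8ip1 exceeded every region of the cascade kinases in mean signal, and those of the next 3 genes did not. Mknk2 encodes MNK2, which phosphorylates the translation factor eIF4E, and a region 0.6 kb from it (chr10:80664651-80664834) had 205.7, 99.3 and 213.8 in TNFDEX and 217.6, 232.5 and 202.9 in DEX. Mapk8ip1, a JNK scaffold gene, had 183.7, 75.5 and 157.5 in TNFDEX and 116, 124.4 and 145.6 in DEX at a region 31.5 kb away whose nearest gene is Cry2 (chr2:92432791-92432970). Neither had a peak in TNF or NI, and in both genes TNFDEX 2 had the lowest value. Shc1, a growth factor receptor adaptor, averaged 89.9 ± 39.3 in TNFDEX and 86.6 ± 34.3 in DEX at a region 39.9 kb away. Rps6ka1, which encodes the ERK-activated kinase RSK1, averaged 76.3 ± 30.2 in TNFDEX and 82.7 ± 28.1 in DEX. Dusp16, a JNK and p38 phosphatase gene, averaged 73.3 ± 27.8 in TNFDEX and 63.5 ± 15.4 in DEX, and had single calls of 19.3 in TNF 1 and 11.1 in NI 2 (SD, n = 3 each throughout). In all of them the 2 groups overlapped.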

How the data were processed

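GR ChIP-seq peak lists of 11 libraries were analysed. The tools were CASAVA 1.8, Bowtie 1.0.0 and HOMER 4.6 and the build mm10, per the submitters' processing notes. Per the file headers, HOMER findPeaks called peaks in each library separately against 1 input library, with a false discovery rate of 0.001 and thresholds of 4-fold and a Poisson p of 0.0001 against both the input and the surrounding 10000 bp. No file of the input was used here. Duplicate handling is not given in the sources used here. The deposited signal is the normalized tag count per 20000000 tags, and the deposited ratio is the fold of a peak over the input, used only as a description.

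Peaks sharing at least 1 bp were merged across libraries. Gene spans and promoter windows came from RefSeq tables of GRCm38.p6. The promoter table matched 34 of 43 members, so no promoter window was searched for Mapk3, Mapk4, Mapk15, Map3k2, Map3k8, Map3k15, Map3k19 and Map4k4. The values of 1 further member are not reported here, though the counts include it. Peak numbers per gene were tested by exact two-sided stratified permutation with Benjamini-Hochberg adjustment over all genes with a peak. The limma fits (version 3.58.1, R 4.3.3) used log2 of the normalized tag count without a pseudocount, on regions called in every library of both groups. Values were scaled by an unweighted trimmed mean of log ratios over those regions and adjusted over all of them. Where peaks of 1 library shared a region, the largest stood for it. Both procedures were tested on simulated data. Software was pandas 2.3.3, numpy 2.4.6, matplotlib 3.10.9 and scipy 1.17.1 under Python 3.11.15.

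The members and lists were chosen with earlier results of these data known. Described in full are the 10 members with the strongest region in DEX or TNFDEX, those with a region in NI or TNF, and any that passed a test. Other members are given by counts and ranges, and of the other pathway genes the 5 with the strongest DEX region are named. The branch grouping was added after values had been seen. The replicate numbers paired DEX with NI (correlations of deviations 0.52, 0.54 and 0.68, the split of the mitochondrial batch), and the block changed no member call there. Numbers did not pair TNFDEX with DEX (0.37, -0.37 and 0.58). Peaks with few tags have the largest counting error. The windows, thresholds and other alternatives are in the closing section.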

Additional observations from a re-analysis of the deposited data

How the results depend on the processing

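Counts of members depend on the window, on the peak threshold and on single libraries. Members with a region were 11 in DEX, 0 in TNF and 4 in NI with a window of 10 kb, and 4 in TNF and 15 in NI with 100 kb. Over all genes the shares were 18.7%, 2.81% and 7.18% with 10 kb and 9.59% and 22.8% with 100 kb. Members with a region were 0 in TNF and 4 in NI by the nearest gene only (over all genes 2.71% and 6.23%). With the 2524 strongest peaks of each library they were 10 in TNFDEX, 9 in DEX and 0 in TNF (11.9%, 12.4% and 3.21%). With peaks of at least 20 tags they were 12, 10, 0 and 1 in TNFDEX, DEX, TNF and NI (19.7%, 16.8%, 0.516% and 2.60%). A call in at least 1 library gave 34, 30, 24 and 29 (over all genes 68.3%, 64.3%, 49.9% and 53.9%). A call in every library gave 14 in TNFDEX and 1 in NI (over all genes 24.1% and 1.62%). Regions of every DEX and no NI library were 19 with 100 kb (9.69%) and 5 by the nearest gene (7.35%), against 12.9% of all regions. Regions of every TNFDEX and no TNF library were 8 with 10 kb (15.1%), 30 with 100 kb (16.0%) and 7 by the nearest gene (11.5%), against 11.6% of all regions. They were 6 with the strongest peaks (21.4%, against 17.2%) and 8 with at least 20 tags (25.8%, against 18.0%). With 100 kb, 1 region was in every TNF and no NI library (0.8%, against 0.565% of all regions). Also, 1 was in every TNF and no TNFDEX library (0.532%, against 0.226%). Regions of every TNFDEX and no DEX library were 0 with the strongest peaks (against 1.35% of all regions). They were also 0 with at least 20 tags (against 0.754%). With at least 20 tags, 6 of 23 members passed the Dex test of peak numbers, and 969 of all 7823 genes tested (12.4%) did. None of the 6 had such a peak in any TNF or NI library, so they were tested only through the Dex-treated libraries. Leaving out 1 library each gave 14 to 21 members in TNFDEX, 0 in TNF (a second call is then impossible) and 1 to 8 in NI. Over all genes the shares were 25.4% to 36.9% in TNFDEX and 2.27% to 13.7% in NI. Leaving out a library also makes the separating pattern easier to meet for all regions. Separating regions then ranged over 9 to 15 for DEX and not NI, 0 to 1 for NI and not DEX, 3 to 6 for TNFDEX and not DEX, 0 to 1 for DEX and not TNFDEX, 0 to 13 for TNF and not NI (13 without TNF replicate 2, 10 without TNF replicate 1), 0 to 1 for NI and not TNF, 16 to 29 for TNFDEX and not TNF, and 0 to 14 for TNF and not TNFDEX. In limma, the number of member regions higher in TNFDEX than in DEX was 1, that of Map3k13, with the batch term and with the replicate block. Over all 4023 regions 25 and 18 were higher in these fits. The member number was 0 to 1 with 1 library left out. With the batch term 1 member region, that of Map3k3, was lower in TNFDEX than in TNF, and 73 of all 508 regions were lower. The block changed no other member call. Signs of uncalled values turned as follows, and the cause was not tested. With the batch term TNFDEX minus DEX was -0.12 at Map2k2, -0.22 at Mapk13 and -0.055 at Map3k7, and with a pseudocount of 1 it was -0.00365 at Mapk13. With 1 library left out it ranged over -0.10 to 0.22 at Map2k2, -0.094 to 0.35 at Map3k3, -0.00702 to 0.24 at Map3k7, -0.14 to 0.20 at Map4k1 and -0.13 to 0.23 at Mapk13. At Map3k3, TNF minus NI was 0.29 with library totals, 0.39 with the replicate block and -0.59 to 0.58 with 1 library left out, DEX minus NI was 0.039 and TNFDEX minus TNF 0.095 with library totals, and the Dex effect on peak number was -0.833 with the strongest peaks and -0.982 per 10000 peaks. With 2 TNF libraries the precision of the TNF comparisons is limited.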
